A study of Mus musculus with 12 samples.

Results

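Egr1 and Fos are immediate early genes, and they are 2 of the 757 endogenous genes that the nCounter Glial Profiling Panel counted in brain RNA of 12 male C57BL/6 mice. They were chosen by their own measured levels in these mice, lower after stroke surgery in floxed mice and not as low in CD73ko mice. Their levels and fold changes between groups are therefore given as a description, without a test. The groups were 4 CD73flox mice after sham surgery (flox sham), 4 CD73flox mice whose middle cerebral artery was transiently occluded for 50 min (flox tMCAO, a stroke model) and 4 CD73ko mice after the same occlusion (CD73ko tMCAO). All brains were taken 3 days after surgery and whole brain RNA was used. CD73 is the surface enzyme, encoded by Nt5e, that makes adenosine from extracellular AMP. The labels give no age, no Cre driver and no cell type for the deletion, and no sham-operated CD73ko mice were analysed here. The table holds no row for Nt5e, so the deletion was not checked.

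Immediate early genes are transcribed within minutes of a stimulus from transcription factors that are already present in the cell, and their mRNAs are short-lived. Calcium entry through glutamate receptors, cAMP and growth factor receptors reach them through the ERK kinase cascade, which acts on the serum response factor and its ETS partners, and through CREB. In the brain both transcripts are widely used as markers of recent neuronal activity. Egr1 encodes a zinc finger transcription factor. Fos encodes a leucine zipper protein that pairs with Jun proteins to form the factor AP-1.

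The Fos promoter is shown because it carries the best-known element through which calcium and cAMP reach this gene. The 250 bases before the RefSeq transcription start are chr12:85473640-85473889 of GRCm38.p6, plus strand, printed 5′ to 3′ with matches to searched motifs in capitals:
Fos: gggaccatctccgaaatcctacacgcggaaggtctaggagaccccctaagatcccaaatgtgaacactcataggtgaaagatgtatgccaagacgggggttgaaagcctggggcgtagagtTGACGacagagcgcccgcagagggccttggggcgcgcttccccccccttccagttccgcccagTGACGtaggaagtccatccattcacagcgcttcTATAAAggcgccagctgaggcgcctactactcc
The CREB core motif TGACG occurred at 129 to 125 and at 66 to 62 bases before the start, and a TATA box, TATAAA, at 33 to 28 bases before it. On either strand, TGACG was found in 17.8% and TATAAA in 12.4% of all 32851 RefSeq promoter windows of the same length. The full CREB site TGACGTCA (1.55% of windows), the AP-1 site TGAGTCA (4.46%) and the EGR site GCGTGGGCG (0.536%) had no match in this window. These are matches of letters only, and the serum response element of Fos lies farther upstream than the window reaches.

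Egr1 was the more abundant transcript by probe count. In the flox sham mice its normalised counts, which are counts scaled for library size, were 1529.9, 1618, 1667 and 1488 in replicates 1 to 4. In the flox tMCAO mice they were 1062, 1208, 696 and 833. All 4 flox tMCAO mice lay below all 4 sham mice, and replicates 3 and 4 were the lowest. In the CD73ko tMCAO mice the normalised counts were 1461, 1435, 1468 and 911. Replicates 1 to 3 lay just under the lowest sham mouse, and replicate 4 lay inside the range of the flox tMCAO mice.

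The mean Egr1 level was 1576 ± 81.2 normalised counts in flox sham, 949.9 ± 229 in flox tMCAO and 1319 ± 272 in CD73ko tMCAO mice (mean ± SD, n = 4 each). The order from high to low was thus sham, CD73ko tMCAO, flox tMCAO, and the last 2 groups overlapped. CD73ko tMCAO and sham mice did not overlap, but the gap between their nearest mice was smaller than the SD of either group. The log2 fold change (± SE, from edgeR) was -0.73 ± 0.16 for flox tMCAO against sham and -0.26 ± 0.16 for CD73ko tMCAO against sham. Between the genotypes after tMCAO it was 0.47 ± 0.16. Of all 757 genes, 10.7% had flox tMCAO mice wholly below sham mice and 9.51% had CD73ko tMCAO mice wholly below sham mice. Those shares stand beside the Egr1 pattern only as background, since the pattern chose the gene.

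Fos was counted at much lower numbers. The flox sham mice had 119, 99.8, 133 and 101 normalised counts in replicates 1 to 4, and the flox tMCAO mice had 107, 113, 57.2 and 82.0. Replicates 1 and 2 of flox tMCAO lay inside the sham range, and replicates 3 and 4, the same mice that were lowest for Egr1, lay below it. The CD73ko tMCAO mice had 139.7, 149, 151 and 108 normalised counts. Replicates 1 to 3 lay above every sham mouse, and replicate 4, again the lowest of its group, lay inside the ranges of both other groups.

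The mean Fos level was 113 ± 15.6 normalised counts in flox sham, 89.9 ± 25.7 in flox tMCAO and 137 ± 20.1 in CD73ko tMCAO mice (mean ± SD, n = 4 each). The order was CD73ko tMCAO, sham, flox tMCAO, and neighbours in that order overlapped. Of all 757 genes, 2.77% had CD73ko tMCAO mice wholly above flox tMCAO mice, 1.06% had them wholly below, and 16.9% had CD73ko tMCAO mice wholly above sham mice, and Fos was in none of these sets. The log2 fold change of Fos (± SE) was -0.34 ± 0.19 for flox tMCAO against sham, 0.60 ± 0.19 for CD73ko against flox after tMCAO and 0.26 ± 0.19 for CD73ko tMCAO against sham. So CD73ko tMCAO mice were below sham for Egr1 and above it for Fos by these estimates. The comparisons share the sham mice or the flox tMCAO mice and are not independent of each other.

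**Figure D1:**
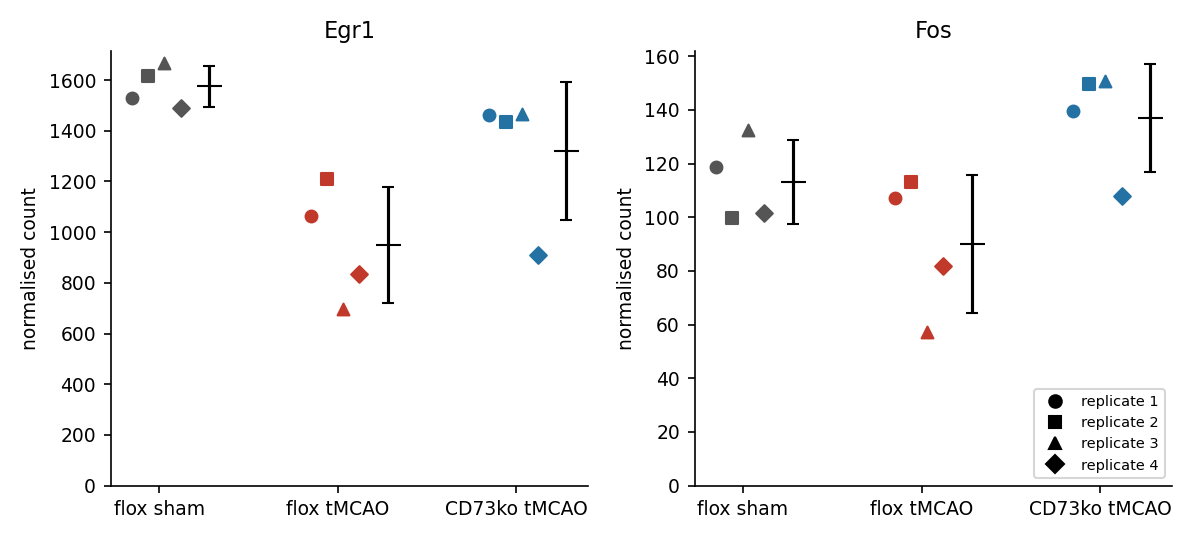
Normalised counts of Egr1 (left) and Fos (right) on axes that start at 0, by group; each symbol is 1 mouse, its shape gives the replicate number, and the bar beside the symbols is the mean ± SD of 4 mice. Flox tMCAO replicates 3 and 4 and CD73ko tMCAO replicate 4 are the low mice of their groups for both genes.

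Single mice set part of these values. Without CD73ko tMCAO replicate 4 the Egr1 log2 fold change of CD73ko tMCAO against sham was -0.12, and between the genotypes it was 0.61. Without flox tMCAO replicate 3 the Egr1 value for flox tMCAO against sham was -0.61 and the Fos value was -0.18. Without flox sham replicate 2 the Fos value of CD73ko tMCAO against sham was 0.17. No left-out mouse, scaling, test, filter or model that was run turned the direction of any of these 6 fold changes, and Egr1 between the genotypes lay between 0.35 and 0.61 when 1 mouse was left out.

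**Figure D2:**
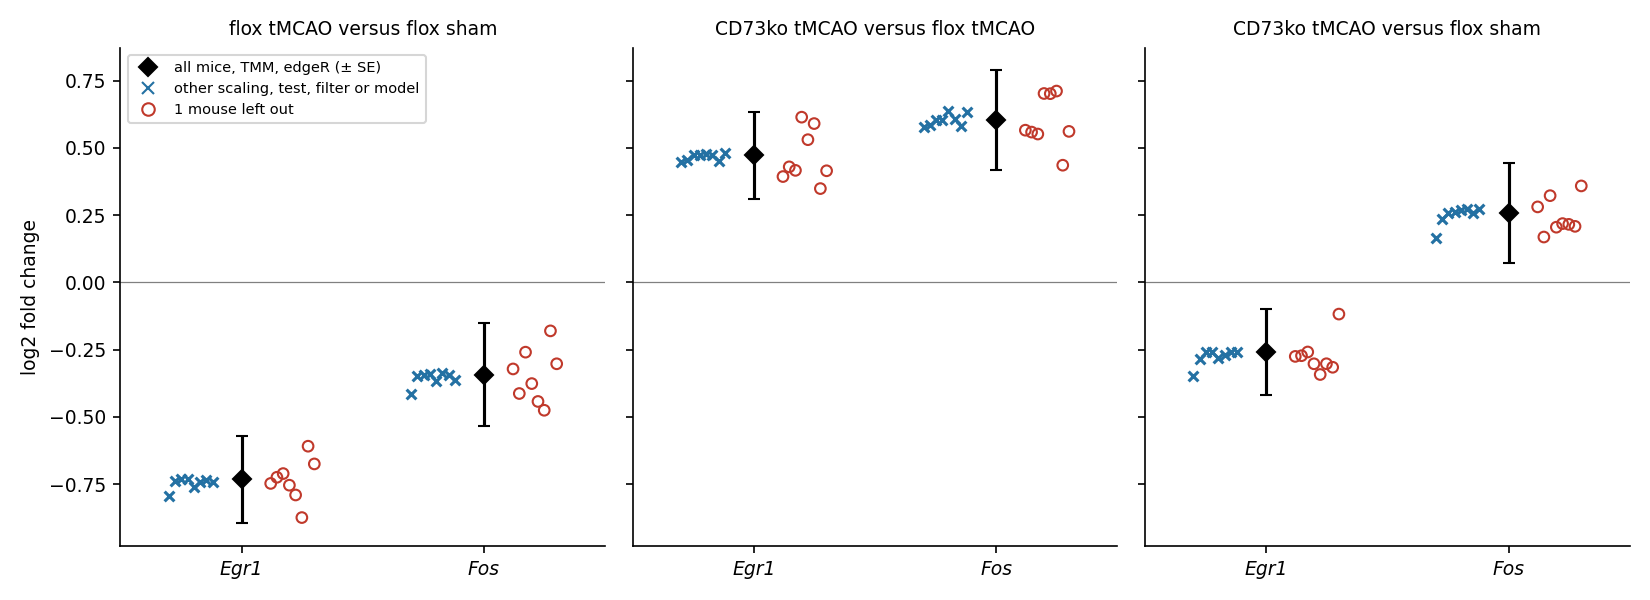
Log2 fold changes of Egr1 and Fos in the 3 comparisons; the black diamond is the estimate from all mice ± SE, blue crosses are other scalings, tests, filters and models, and red circles leave out 1 mouse each. The crosses stay close to the diamond, and the circles spread from -0.87 to -0.61 for Egr1 in flox tMCAO against sham and from -0.48 to -0.18 for Fos.

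The depth behind the 2 genes differs. The total count over the 770 panel genes was 724655 to 848853 in 11 libraries and 293589 in flox sham replicate 4. Raw counts of Egr1 were 587 to 1848 over all mice, far above the background limit of the negative control probes (mean plus 2 SD), which was 5.33 to 19.4. Raw counts of Fos were 40 to 161. The lowest, in flox sham replicate 4, has an exact 95% Poisson interval of 28.6 to 54.5, which covers counting error only, and a background limit of 5.33 in its own library. Both genes were thus above background in every mouse. Without this shallow library the log2 fold changes of flox tMCAO against sham were -0.75 for Egr1 and -0.38 for Fos.

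The spread of Egr1 between mice was wider in the flox tMCAO group than in the shams, and in the CD73ko tMCAO group it rested on replicate 4. Its SD on the log2 scale was 0.07 in flox sham, where 589 of the panel's 712 genes above background varied more. It was 0.35 in flox tMCAO mice, where 75 genes varied more, and 0.34 in CD73ko tMCAO mice, where 82 did. Without CD73ko tMCAO replicate 4 that SD was 0.02, below the sham value, while in flox tMCAO it was at least 0.27 with any mouse left out. For Fos the SD was 0.19, 0.44 and 0.23 in the same order, and it was 0.06 in CD73ko tMCAO mice without replicate 4 and 0.25 in flox tMCAO mice without replicate 3. Counting alone gives an SD of about 0.04 to 0.05 for Egr1 and 0.12 to 0.16 for Fos. Pooled over the groups, the within-group SD of Egr1 was 0.29, and 1 of the 100 genes nearest to it in level exceeded that (median of the 100, 0.10). The within-group SD of Fos was 0.31, and 18 of its 100 nearest genes exceeded it. The difference in spread between groups was not tested.

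With the deviations of all groups pooled, the 2 genes moved together within groups, which the choice of the genes did not use. Over deviations of log2(normalised count + 1) from the group means in 12 mice, Pearson's r between Egr1 and Fos was 0.89 (two-sided permutation test over all arrangements within groups, exact p = 0.00362), and Spearman's rho was 0.87 (exact permutation p = 0.00448). This was the only relation tested. In flox tMCAO mice the order of the 4 mice was the same for both genes, and in CD73ko tMCAO mice replicate 4 was lowest for both. The sham mice differed little in Egr1 and were ordered differently by the 2 genes. Without CD73ko tMCAO replicate 4 and flox tMCAO replicate 3, the mice farthest out on Egr1, r was 0.75 (exact permutation p = 0.0856), so that the call rests on these 2 mice. With any 1 mouse left out r lay between 0.85 and 0.92 (exact permutation p from 0.00174 to 0.0185). The 2 values of a mouse come from the same library and share its scaling factor, and r was 0.90 with counts centred on the panel's housekeeping genes.

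The ratio of the 2 raw counts in a library needs no scaling. In flox sham mice there were 7.76, 6.17, 7.95 and 6.81 Fos counts per 100 Egr1 counts in replicates 1 to 4. There were 10.1, 9.36, 8.22 and 9.84 in flox tMCAO mice and 9.56, 10.4, 10.3 and 11.8 in CD73ko tMCAO mice. Every tMCAO mouse of either genotype lay above every sham mouse, while the 2 tMCAO groups overlapped. The ratio is made of the levels that chose the genes and was not computed for other gene pairs, so this is a description only. The gap was within counting error: the highest sham mouse, at 7.95, had an exact binomial 95% interval of 6.68 to 9.41, and the lowest tMCAO mouse, at 8.22, one of 6.19 to 10.7. The group means were 7.17 ± 0.837, 9.38 ± 0.835 and 10.5 ± 0.948 Fos counts per 100 Egr1 counts (mean ± SD, n = 4 each). The low mouse of the CD73ko group, replicate 4, had the highest ratio of all, with an exact binomial 95% interval of 9.67 to 14.3. That interval overlapped those of the other CD73ko tMCAO mice, such as 8.70 to 12.4 in replicate 2. Its lower Egr1 count relative to Fos was thus within counting error. The ratio compares groups within the same 2 probes and does not give relative amounts of the 2 mRNAs, since probes differ in efficiency.

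**Figure D3:**
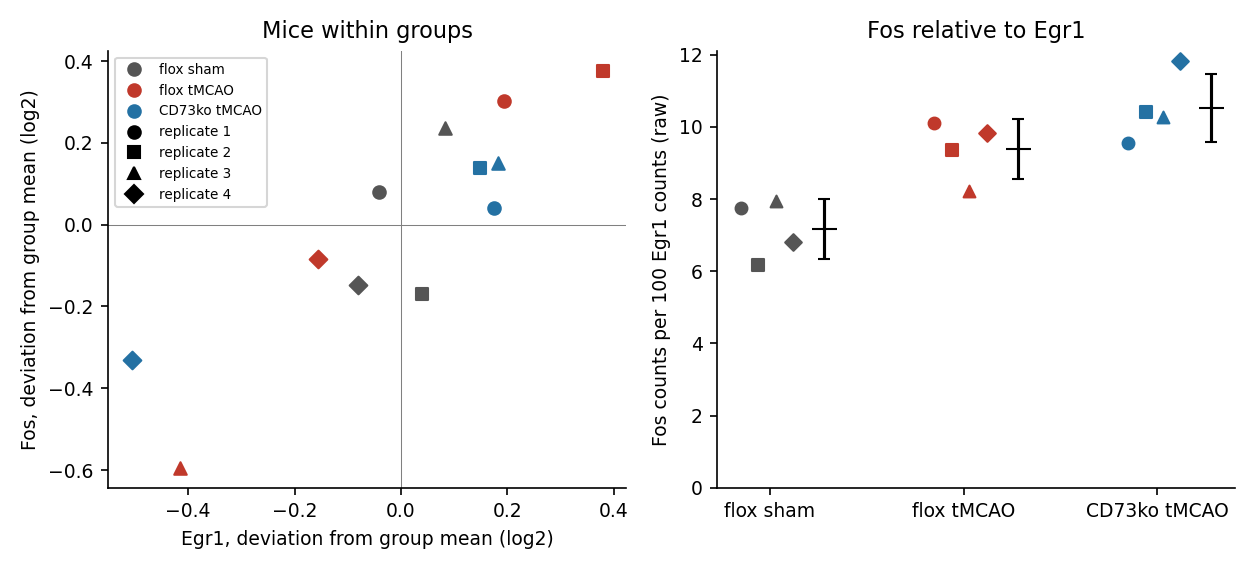
Left, deviation of each mouse from its group mean for Egr1 (x axis) and Fos (y axis), log2 units; colours give the group and shapes the replicate number. Right, Fos counts per 100 Egr1 counts in each library with the mean ± SD of 4 mice, where sham mice lie between 6.17 and 7.95 and tMCAO mice between 8.22 and 11.8.

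Other genes were compared with Egr1 by Pearson's r of log2(normalised count + 1) over the 12 mice, among the 711 other genes above background, as a description. The 5 closest were Ninj2 (r = 0.90), Cx3cl1 (0.88), which encodes the neuronal chemokine fractalkine, Gabra4 (0.86), a GABA-A receptor subunit gene, Trim46 (0.85) and the potassium channel gene Kcnq3 (0.84). All 5 shared the order of Egr1, with the highest mean in flox sham and the lowest in flox tMCAO. This r includes the differences between groups, so genes picked by it tend to share that order. Cx3cl1, for example, had 604 ± 30.5, 394 ± 93.7 and 501 ± 17.1 normalised counts in flox sham, flox tMCAO and CD73ko tMCAO mice (mean ± SD, n = 4 each). Ninj2 stood near background, at 14.3 to 23.6 normalised counts in the group means. Fos was twelfth in this order, with r = 0.77.

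Over deviations from the group means, Fos was the closest of the 711 genes to Egr1 (r = 0.89), before Cd3e (0.88), Adora2b (0.85), an adenosine receptor gene, Etv5 (0.84) and Ninj2 (0.81). With DESeq2's size factors Fos was second, behind Cd3e, a T cell receptor complex gene with group means of 9.10 to 14.7 normalised counts, near background. The closest to Fos were Etv5 (0.92), an ETS family transcription factor gene, Egr1 (0.89), Cx3cl1 (0.88), the neurofilament gene Nefl (0.86) and Sox10 (0.85), a transcription factor gene of oligodendrocytes. This order depended on the scaling: with housekeeping scaling Trim46 was the closest to Fos (0.93) and Egr1 had rank 3. Over the 12 mice themselves, the closest to Fos were Fa2h (0.82), Etv5 (0.81), Gpr17 (0.80), Trim17 (0.78) and Bace1 (0.78). Fa2h encodes an enzyme of myelin lipid synthesis, Gpr17 marks immature oligodendrocytes and Bace1 encodes the beta-secretase. The oligodendrocyte markers were low in the mouse with the lowest Fos, flox tMCAO replicate 3, where their list mean was -0.34 against 0.23 to 0.29 in the other 3 mice of the group (log2, against the sham mean). Their part in the Fos values was not tested.

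Of 52 immediate early genes listed, 5 were on the panel, and the others were Jun, Bdnf and Ptgs2. Jun, whose protein pairs with Fos, had 365 ± 24.1 normalised counts in flox sham, 394 ± 19.5 in flox tMCAO and 435 ± 46.3 in CD73ko tMCAO mice (mean ± SD, n = 4 each). Its CD73ko tMCAO values were 375, 428, 449 and 486, so that replicate 4, the low mouse for Egr1 and Fos, was the highest for Jun. Jun rose in CD73ko tMCAO against sham by a log2 fold change of 0.26 ± 0.08 (edgeR adjusted p = 0.0361), beside 16.1% of all genes called higher in that comparison. The call was lost with housekeeping scaling (edgeR adjusted p = 0.154), with DESeq2's size factors (0.0555), with only the 2 groups compared (0.0528) and in 6 of 8 fits with 1 mouse left out, those without flox sham replicates 1, 2 or 3 or CD73ko tMCAO replicates 2, 3 or 4 (highest adjusted p = 0.126). In flox tMCAO against sham the Jun value was 0.12 ± 0.08 (edgeR adjusted p = 0.341), and between the genotypes it was 0.14 ± 0.08 (edgeR adjusted p = 0.811).

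Bdnf, which encodes a neurotrophin induced by activity, had 189.6 ± 23.6, 208 ± 28.8 and 192 ± 23.7 normalised counts in flox sham, flox tMCAO and CD73ko tMCAO mice (mean ± SD, n = 4 each). Ptgs2, which encodes cyclooxygenase-2, had 67.2 ± 24.8 in flox sham and 60.5 ± 6.09 in CD73ko tMCAO mice (mean ± SD, n = 4 each), and 62.1, 54.6, 42.7 and 41.0 in the 4 flox tMCAO mice. The sham mean of Ptgs2 was raised by the shallow library, replicate 4, with 104.0 normalised counts against 50.5 to 59.4 in the other sham mice, and was 55.0 ± 4.44 (SD, n = 3) without it. Neither passed in any comparison, and the smallest edgeR adjusted p was 0.314, for Ptgs2 in flox tMCAO against sham (log2 fold change -0.32 ± 0.21). Without flox sham replicate 4 that value was -0.13 ± 0.17, and in CD73ko tMCAO against sham the value of Ptgs2 went from -0.06 ± 0.21 to 0.12 ± 0.16. In flox tMCAO against sham the estimates of the panel's 5 immediate early genes had mixed signs. They were negative for Egr1, Fos and Ptgs2 and positive for Jun and Bdnf (0.11 ± 0.13 for Bdnf). Jun, Bdnf and Ptgs2 did not pass in this comparison, so their signs do not establish a direction.

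The genes that carry signals to Egr1 and Fos, and the markers of the neurons that express them, formed 9 lists with 77 measured genes beside Egr1 and Fos. In flox tMCAO against sham 20 of the 77 fell and 1 rose (edgeR, Benjamini-Hochberg adjusted p under 0.05 over 757 genes), against 22.1% of all genes called, 7.93% lower and 14.1% higher. The median log2 fold change was -0.13 over the 77 and -0.01 over all genes. In whole brain RNA, fewer cells of a type and less RNA per cell cannot be told apart. Of the 21 calls, 9 held in all 8 fits with 1 mouse left out. Leaving out flox sham replicate 1 gave 11 calls, and leaving out replicate 1 or 2 of flox tMCAO gave 13 each. With housekeeping scaling the split of all genes was 89 higher and 99 lower, against 107 and 60.

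Among the ERK cascade genes, Rasgrp1, which encodes a calcium-responsive activator of Ras, had a mean of 2700.1 normalised counts in sham and 1984 in flox tMCAO mice, which did not overlap. It fell by 0.44 ± 0.07 on the log2 scale (edgeR adjusted p = 0.000355). It was the 1 of 10 members that passed, beside 22.1% of all genes called, and the kinase gene Map2k1 (-0.08 ± 0.05) did not. None of 7 genes of the JNK and p38 modules passed. Of 18 calcium and CREB signalling genes 4 fell, beside 7.93% of all genes called lower. Adcy5, a striatal adenylyl cyclase gene, changed by -0.37 ± 0.05, and Itpr1, an intracellular calcium release channel gene, by -0.23 ± 0.05, and both calls held with any mouse left out. Camk4 (-0.29 ± 0.09), the kinase gene most directly tied to CREB, and Adcy1 (-0.18 ± 0.06) passed with all mice but each in only 2 of 8 fits with 1 mouse left out.

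All 10 glutamate receptor genes had negative log2 fold changes in flox tMCAO against sham, beside 391 of all 757 genes. Of the 10, 3 fell, beside 7.93% of all genes called lower. Grin2a, an NMDA receptor subunit gene, had 225 ± 20.4 normalised counts in sham and 159 ± 8.48 in flox tMCAO mice (mean ± SD, n = 4 each). It fell by 0.52 ± 0.09 on the log2 scale (edgeR adjusted p = 0.000970), a call that held with any mouse left out. Grin3a (-0.31 ± 0.09) was lost without flox sham replicate 1 or 2, and Gria2 (-0.19 ± 0.05), an AMPA receptor subunit gene, without flox sham replicate 1 or flox tMCAO replicate 1. Of 11 receptor genes that feed into immediate early genes, Chrm3 (-0.52 ± 0.12), Adrb1 (-0.49 ± 0.11) and Drd1 (-0.37 ± 0.08), which encode muscarinic, adrenergic and dopamine receptors, fell in all 8 fits. Tgfbr1 (0.46 ± 0.14), a receptor gene for TGF-beta, was the 1 that rose, and the call was kept in 2 of the 8 fits.

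All neuron markers other than Eomes had log2 fold changes between -0.44 and 0.05 in flox tMCAO against sham. Of 10 general neuron markers 4 fell, beside 7.93% of all genes called lower, with a median of -0.16 over the list. They were Syn1 (-0.29 ± 0.08), Eno2 (-0.25 ± 0.09), Syt1 (-0.24 ± 0.08) and Snap25 (-0.21 ± 0.06), genes of synapses and neuronal metabolism, and each was lost without flox sham replicate 1. Of 7 excitatory neuron markers 4 fell, with a median of -0.24, and Eomes, a transcription factor gene at low counts, had the value nearest to Egr1 (-0.71 ± 0.24), in a call kept in 1 of 8 fits. Tbr1 (-0.44 ± 0.09), a cortical transcription factor gene, was the call among them that held with any mouse left out. Of 3 inhibitory and striatal markers Gad1 (-0.28 ± 0.07), which encodes a GABA-synthesising enzyme, and Drd1 fell. Against the sham mean, Egr1 stood at -0.57, -0.38, -1.18 and -0.92 in flox tMCAO replicates 1 to 4, and the mean of the general neuron markers at -0.09, -0.13, -0.25 and -0.11 (log2). In the same mice the mean of the excitatory neuron markers stood at -0.26, -0.27, -0.28 and -0.30. That of the inhibitory and striatal markers stood at -0.26, -0.17, -0.24 and -0.31. The part of the neuron markers in the Egr1 values was not tested.

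**Figure D4:**
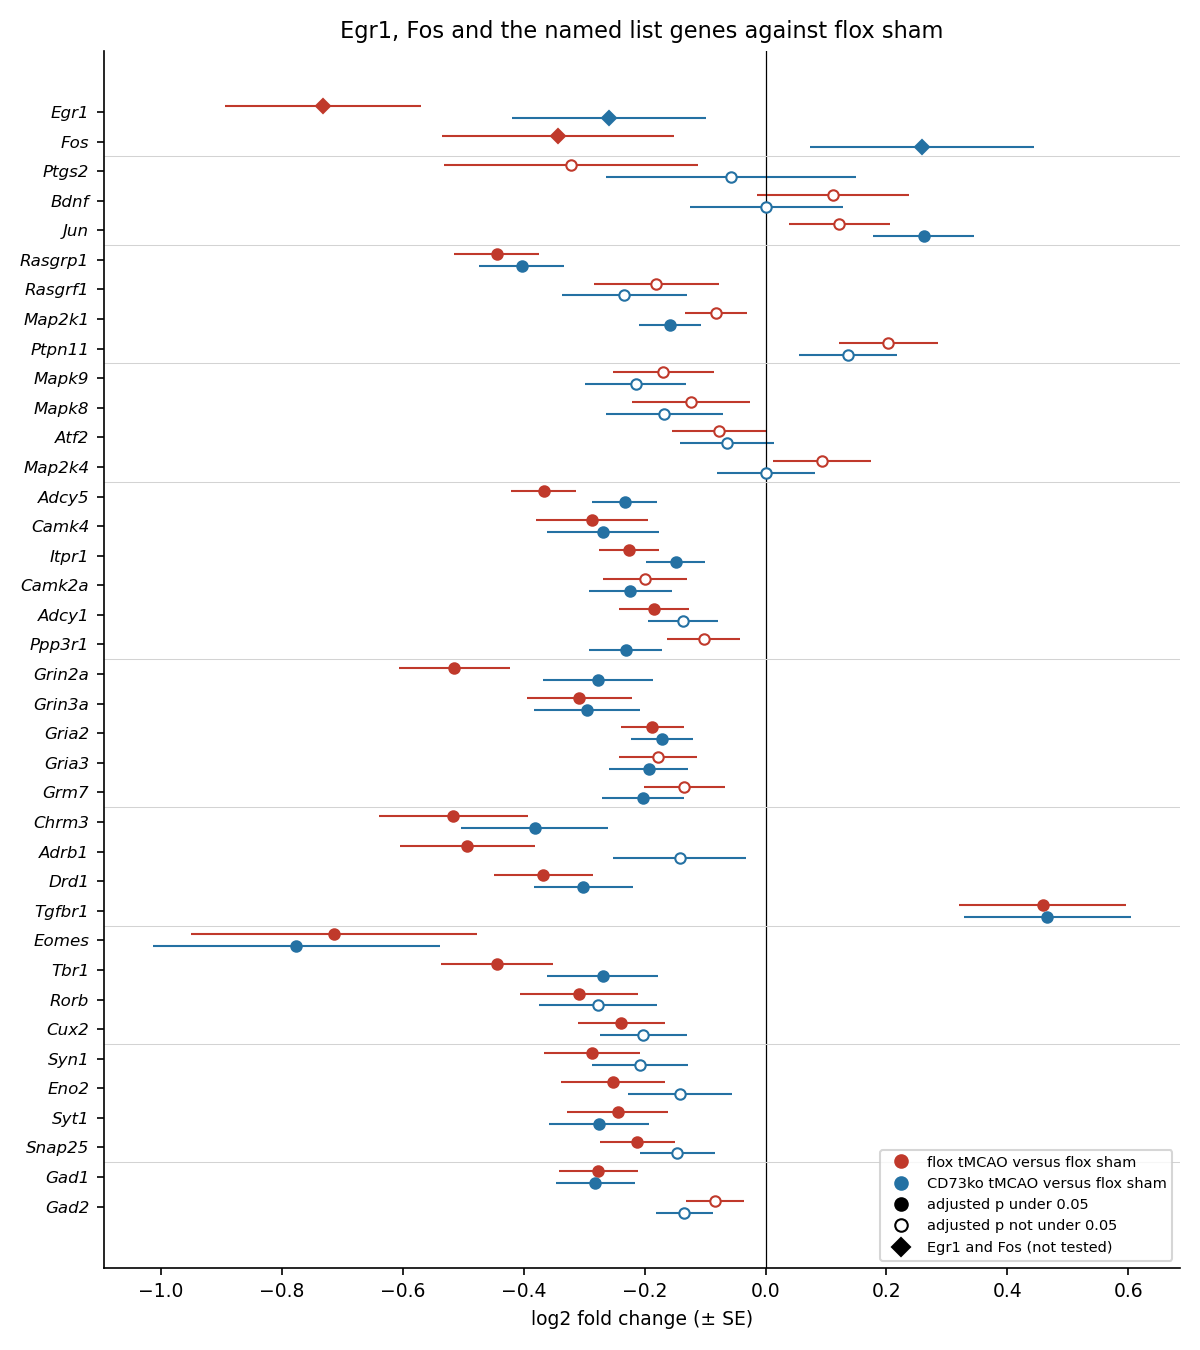
Log2 fold changes ± SE against flox sham of Egr1, Fos and the named genes of 9 lists, for flox tMCAO (red) and CD73ko tMCAO (blue), with 1 named gene not shown; filled circles passed an adjusted p of 0.05 and open circles did not, and diamonds mark Egr1 and Fos, which were not tested. Red and blue lie close together for most list genes. They lie 0.47 and 0.60 apart for Egr1 and Fos, which were chosen by their levels in these groups.

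In CD73ko tMCAO mice against sham, of the 77 genes 18 fell and 2 rose (edgeR), against 22.7% of all genes called, 6.61% lower and 16.1% higher, and the median log2 fold change was -0.13 over the 77 and 0.00 over all genes. Rasgrp1 (-0.40 ± 0.07), Adcy5 (-0.23 ± 0.05) and Gad1 (-0.28 ± 0.07) were the 3 whose calls held with any mouse left out. Leaving out flox sham replicate 1 gave 8 calls and leaving out its replicate 2 gave 11. Leaving out CD73ko tMCAO replicates 1 to 4 in turn gave 31, 5, 4 and 6 calls. It was 32, all lower, with housekeeping scaling. Among the ERK genes Map2k1 (-0.16 ± 0.05), a kinase gene of the cascade, passed beside Rasgrp1 with all mice. Of the glutamate receptors 5 of 10 passed with all mice, including Grin2a at -0.28 ± 0.09, and none of the 5 in every fit with 1 mouse left out. Without CD73ko tMCAO replicate 2, none of the glutamate receptor, general neuron and excitatory neuron genes passed.

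Between the genotypes after tMCAO, none of the 77 genes passed (0% of all 757 genes were called by edgeR, 0 by DESeq2 and 0 by limma, and 47 genes had an unadjusted edgeR p under 0.05). The median log2 fold change was 0.01 over the 77 genes and 0.03 over all genes. Egr1 (0.47) and Fos (0.60) had ranks 25 and 12 from the highest of all 757 genes. Both were chosen by their levels in these groups, so their distance from the medians is a description only. The estimates were 0.04 ± 0.07 for Rasgrp1, 0.13 ± 0.05 for Adcy5, 0.24 ± 0.09 for Grin2a and 0.35 ± 0.11 for Adrb1. These genes were named for a small p in flox tMCAO against sham, which shares the flox tMCAO mice. The values ranged from -0.10 to 0.08 over the ERK cascade genes and from -0.15 to 0.13 over the calcium and CREB genes. They ranged from -0.08 to 0.24 over the glutamate receptor genes and from -0.14 to 0.35 over the receptor genes that feed into immediate early genes. A missed threshold does not show that the genotypes were alike in these genes.

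Whole brain RNA held the defining markers of its main cell types above background: 10 of 10 general neuron, 7 of 7 excitatory neuron, 21 of 21 microglia and macrophage, 8 of 8 astrocyte, 11 of 11 oligodendrocyte and 7 of 7 endothelial markers, but 4 of 11 neutrophil and lymphocyte markers. The means of several of these lists differed between sham and tMCAO mice and overlapped between the 2 tMCAO groups. The microglia and macrophage list, of which 15 of 21 members rose in flox tMCAO and 16 in CD73ko tMCAO against sham, beside 14.1% and 16.1% of all genes called higher, had means of 0.67 to 1.26 and 0.97 to 1.57 above sham per mouse (log2). The mean of the astrocyte list lay 0.52 to 0.69 and 0.41 to 0.74 above sham in the same groups. Of its 8 members, 2 rose in flox tMCAO and 3 in CD73ko tMCAO against sham, beside the same shares of all genes. The median log2 fold change of the members was 0.21 and 0.20, and the largest was 2.05 and 2.20, so the list mean does not describe most members. The excitatory neuron list lay 0.26 to 0.30 below sham in flox tMCAO and 0.09 to 0.39 below it in CD73ko tMCAO mice, and CD73ko tMCAO replicate 4 was the lowest at -0.39. The part of these cell types in the levels of Egr1 and Fos was not tested.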

How the data were processed

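Barcodes bound to each gene's probe were counted on the nCounter Glial Profiling Panel. The values used are raw counts as deposited, seen as whole numbers whose totals differ between libraries; the counting software is not given in the sources used here. The 14 control probes stayed out, and 13 housekeeping genes served only for scaling. The authors' 2 normalised tables were left out, since their 11 sample names match no label.

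Groups came from the labels. The members and gene lists were chosen with earlier results of these data known. edgeR 4.0.16 (R 4.3.3; quasi-likelihood, TMM, all 12 mice, Benjamini-Hochberg over 757 genes at 0.05) was the test, checked on simulated data. Standard errors are the absolute log2 fold change over the square root of F. Background means above the negative control mean plus 2 SD in 3 of 4 mice of some group (712 genes). Genes were named by rule: all listed immediate early genes, the 4 smallest p per list, members called elsewhere, and the 5 highest correlations. Some are left out for space, and 1 is not reported here. Alternatives included DESeq2 1.42.0, limma 3.58.1, other scalings and leaving out each mouse. Each mouse is a separate sample; replicates differed by more than sampling error (chi-square over its degrees of freedom was at least 1.73 for each pair). Of 770 symbols, 765 matched RefSeq GRCm38.p6, which gave the promoter.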

Additional observations from a re-analysis of the deposited data

Results flagged for a closer look

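In 57 group-wise checks, each over 4 mice, a mouse stood apart from the other 3 by Dixon's criterion in 4 cases, and chance flags about 1 in 20. Egr1 in CD73ko tMCAO replicate 4 had 911 normalised counts, against 1435 to 1468 in the other 3 mice. The mean of the oligodendrocyte markers was -0.34 (log2, against the sham mean) in flox tMCAO replicate 3, which also had the lowest Egr1 and Fos counts. In flox sham replicate 4, the shallow library, the mean of the astrocyte markers was 0.10 and that of the JNK and p38 genes was -0.12, on the same scale. The causes were not tested.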

How the results depend on the processing

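The 6 fold changes of Egr1 and Fos moved by less than the spread between mice in all 48 alternatives per gene, counted over the 3 comparisons. That spread is the pooled within-group SD, 0.29 for Egr1 and 0.31 for Fos (log2). It is a wide margin, larger than the estimates for CD73ko tMCAO against sham, -0.26 and 0.26. The number of genes called in CD73ko tMCAO against sham was 172 and lay between 110 (without CD73ko tMCAO replicate 3) and 229 when 1 mouse was left out; for flox tMCAO against sham it was 167 and lay between 125 and 206. Of the 77 list genes, the number called in CD73ko tMCAO against sham was 20, and it was 32 with housekeeping scaling, 10 with only the 2 groups compared and 4 to 31 with 1 mouse left out; in flox tMCAO against sham it was 21 and ranged from 11 to 21 with 1 mouse left out. With housekeeping scaling 101 of the 218 calls in CD73ko tMCAO against sham were higher, compared with 122 of 172. With the replicate block the list genes called numbered 11 in CD73ko tMCAO and 15 in flox tMCAO against sham. Same-numbered mice correlated between -0.25 and 0.17 over deviations from the group means. Of 12 mice, 3 correlated best with their own number. With so few mice per group this check cannot exclude a pairing by number. Under the block Jun had an edgeR adjusted p = 0.0619 in CD73ko tMCAO against sham. The spread of both genes and Ptgs2 with mice left out were added after seeing the data. The correlation of Egr1 and Fos within groups was 0.75 without the 2 mice farthest out on Egr1, an alternative with an exact permutation p = 0.0856. Subtracting the negative control mean, chosen after seeing the data, gave -0.74 for Egr1 and -0.36 for Fos in flox tMCAO against sham. Depth limits Fos more than Egr1. The causes of these shifts were not tested.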
